A study of Mus musculus with 15 samples.

Results

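miR-652 (mmu-miR-652) was followed across mouse liver grafts in the 2 weeks after transplantation and on day 100. It is 1 of the 567 mouse miRNAs on the array and was taken up because its level rose step by step to day 14, so its levels and differences are described here without a test. Cy3-labeled RNA from 15 liver grafts of male mice was measured on Agilent arrays in 1 color, with a separate array for each graft. The control group was 3 syngeneic grafts taken on day 5, and the allografts were taken in groups of 3 on days 5, 8, 14 and 100. The allografts were livers of B10.BR donors (H2-Kk) placed orthotopically into B10.D2 recipients (H2-Kd), which differ at the major histocompatibility complex, and no immunosuppressant was given. The strain label of the syngeneic arrays names the same donor and recipient pair as the allografts. Their titles call them syngeneic and were followed here, and the strain used for the syngeneic grafts is not given in the sources used here. All allograft days were compared with syngeneic grafts of day 5, so on the later days the graft type and the time after surgery cannot be told apart.

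miRNAs are short RNAs that guide the Argonaute protein to messenger RNAs, mostly through pairing of a short stretch near their 5′ end, the seed, and lower the output of those messages. miR-652 is processed from an intronic hairpin of the gene Tmem164 and is known from circulating blood and from blood cells such as monocytes. A rejected or tolerated liver graft is a mixture of hepatocytes, vessel and stromal cells and infiltrating leukocytes of the recipient. In such bulk tissue, fewer cells of a type and less of a miRNA per cell cannot be told apart.

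The miRNA gene Mir652 lies at chrX:142739000-142739097 on the plus strand (GRCm38.p6, RefSeq). Its 98 bases fall within Tmem164 (chrX:142680347-142843494), which is transcribed from the same strand. The nearest other miRNA gene on the chromosome, Mir680-2, is 1558693 bases away, so no other miRNA gene of the RefSeq table stands next to it. The array names the miRNA without an arm, and the files hold no probe sequence. In that older naming, the plain name stands for what is now the 3p arm. Both mature arms are shown because they carry the seeds by which the miRNA would be matched to targets, with the seed (bases 2 to 8 from the 5′ end) in capitals:
mmu-miR-652-3p: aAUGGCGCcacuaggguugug
mmu-miR-652-5p: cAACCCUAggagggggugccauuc
The 3p arm has 21 bases and the 5p arm 24. None of the other names among the 1679 mature mouse miRNA names in the RefSeq table has either seed (0 in each case), so miR-652 has no seed family there. Both arms are rich in G and C, at 57.1% and 62.5%, against a median of 52.2% over the mature miRNAs. The letters GGCGCC at positions 4 to 9 of the 3p arm read the same on the opposite strand. They occur in 8 of the mature miRNAs, or 0.477%.

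A miRNA has 1 to 4 probes on the array, and each probe is repeated over several spots. Background-subtracted spot intensities were averaged per probe and added up over probes. The sum was divided by the array's 75th percentile, set on the 52 miRNAs that every array detected. Values under 0.0270 were set to this floor, and the log2 of the result is called the scaled signal. Detection required that for 1 probe or more a share of 0.5 of its spots lay well above background. The percentile that set the scale ranged from 395 to 616 intensity units on syngeneic arrays and from 457 to 1018 on allograft arrays, and no spot was saturated. Replicate 1 of day 100 was the noisiest array: its additive error was 13.1 intensity units, where the others had 2.67 to 3.66. Tests covered the 103 mouse miRNAs that were detected throughout 1 group or more, and miR-652 was among them.

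miR-652 was dim in the syngeneic grafts and higher in each group of allografts, with the highest level on day 14. Its scaled signal was -4.60 and -4.51 in syngeneic replicates 1 and 3, and in replicate 2 it was not detected and lay at the floor of -5.21. In the allografts of day 5 it was -3.78, -3.81 and -3.81. On day 8 it was -3.10, -3.01 and -3.18. All 3 arrays of day 8 thus lay above all 3 of day 5, and these above all 3 syngeneic arrays. On day 14 the values were -2.66, -2.96 and -2.91, which are the highest of the 15 arrays. On day 100 they were -4.46, -3.83 and -3.66, and the lowest of these, on the noisy replicate 1, was not detected. The course therefore went up over the first 3 allograft groups and down again by day 100, to a level that overlapped that of day 5. The plot of each graft shows these values.

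**Figure D1:**
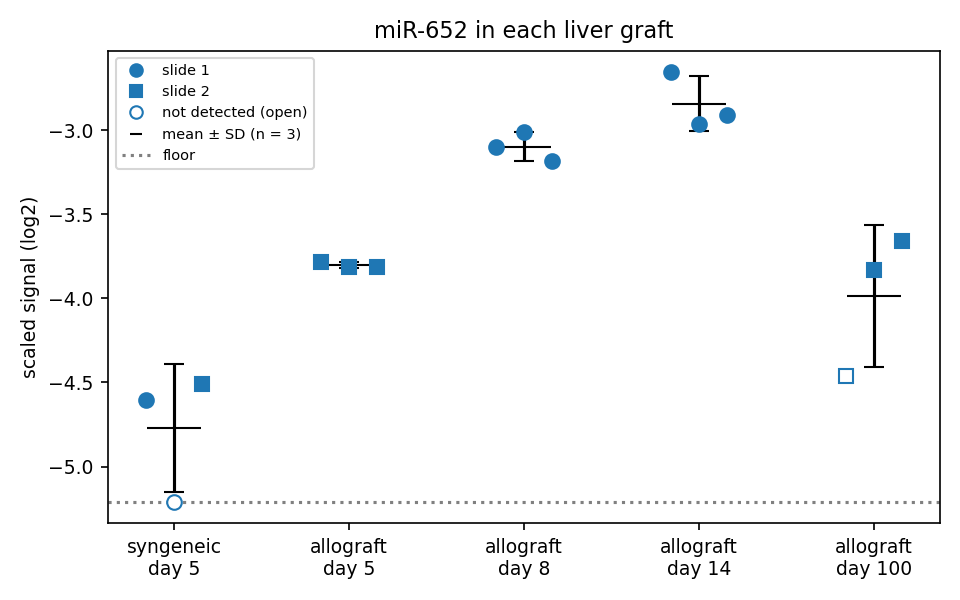
miR-652 in each of the 15 liver grafts, as scaled log2 signal on the vertical axis and graft group on the horizontal axis. Circles are arrays of slide 1, squares arrays of slide 2 and open symbols arrays on which miR-652 was not detected. Bars give the group mean ± SD (n = 3), and the dotted line is the floor at -5.21. The 3 arrays of day 14 lie between -2.96 and -2.66, above all others.

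The syngeneic grafts had a mean scaled signal of -4.77 ± 0.38 (SD, n = 3), and day 5 allografts one of -3.80 ± 0.017. Day 8 had -3.10 ± 0.085, day 14 had -2.84 ± 0.16 and day 100 had -3.99 ± 0.42. The allografts of days 5, 8 and 14 were tight groups, and the spread was widest in both groups that held an array without detection. Without these arrays the syngeneic mean was -4.56 and that of day 100 was -3.75.

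Against the syngeneic grafts, the difference was 0.97 (SE 0.22) on the log2 scale on day 5, or 1.96-fold. It was 1.68 (SE 0.23) on day 8, or 3.19-fold, and 1.93 (SE 0.24) on day 14, or 3.81-fold. On day 100 it was 0.79 (SE 0.33), or 1.73-fold. These differences compare with medians over the 103 tested miRNAs of 0.12, 0.14, 0.07 and 0.00. Counted from the top of the 103, miR-652 ranked 12, 6, 7 and 13 on the allograft days in order. The same 3 syngeneic arrays serve all 4 comparisons. They depend on syngeneic replicate 2, which lay at the floor. The day 14 difference was 2.15 with the floor divided by 4 and 1.71 without that array.

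The steps between allograft days do not share the syngeneic arrays. From day 5 to day 8 miR-652 differed by 0.70 (SE 0.05), or 1.63-fold, and the groups lay 0.60 apart. The gap was 0.20 with quantile normalization and 0.09 with normexp background correction. Unlike the SEs given below with limma, those of miR-652 come only from the arrays of the groups compared. The SE of this step rests in part on the day 5 SD of 0.017, where the SD pooled over all groups was 0.27. From day 8 to day 14 the difference was only 0.26 (SE 0.11), or 1.19-fold, with a gap of 0.05 between the nearest arrays. These neighbors were not separated beyond their spread under every processing, since their arrays overlapped in 4 of 10 ways of scaling and summarizing the spots. From day 14 to day 100 the difference was -1.14 (SE 0.26), a 2.21-fold lower level, and the groups overlapped in 1 of the 10 ways of processing, the 75th percentile over all miRNAs. Ordered by mean, the groups ran from syngeneic over day 100, day 5 and day 8 to day 14. Day 100 and day 5, next to each other in this order, differed by 0.18 (SE 0.24) and overlapped. Day 100 and the syngeneic grafts lay 0.04 apart at the nearest arrays and overlapped in 3 of the 10 ways of processing.

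The arrays lay on 2 slides, and the slide changes between some of these steps. Days 8 and 14 were on slide 1 together with syngeneic replicates 1 and 2, and days 5 and 100 were on slide 2 together with syngeneic replicate 3. Within slide 1, miR-652 was 1.81 above the syngeneic mean on day 8 and 2.06 above it on day 14. Within slide 2, it was 0.71 above the single syngeneic array on day 5 and 0.52 above it on day 100. With slide as a block, the step from day 5 to day 8 became 1.10 and that from day 14 to day 100 became -1.54. No allograft group lay on both slides, so the block takes the slide difference from the 3 syngeneic arrays alone. Syngeneic replicate 2, at the floor, is one of these, so both block values depend on it. The part of the slide in these steps was not tested.

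Both probes of miR-652, with 10 spots each, followed the same order of groups. The spots of the brighter probe averaged 8.04 to 24.8 intensity units per syngeneic array, and 29.9 to 58.4 per array of day 5. They reached 72.4 to 83.9 on day 8 and 83.3 to 115.5 on day 14, and were 31.8 to 54.2 on day 100. Of the usable spots of this probe, 16 of 30 were well above background in the syngeneic grafts and 19 of 29 on day 100, against 28 of 28, 30 of 30 and 30 of 30 on the other allograft days. The coefficient of variation between spots of one array was 14.9% to 31.4% in the syngeneic grafts and 5.32% to 12.2% in the allografts. On the noisy replicate 1 of day 100, however, 0 of 10 spots of this probe were well above background.

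The dimmer probe was near background. It was well above background on 19 of 30 spots on day 14, on 2 of 29 on day 5 and on none (0) in the other groups. After division by the array percentile, its mean in the 5 groups, in the order syngeneic and then allografts by day, was 0.0023, 0.0086, 0.0155, 0.0195 and 0.0033. The same quantity for the brighter probe was 0.0318, 0.0631, 0.101, 0.121 and 0.0616. On syngeneic replicate 2 and day 100 replicate 1 the dimmer probe averaged -1.25 and -8.77 intensity units. On the latter array the brighter probe read 54.2, so the low summed value of that graft, 45.4, carries the negative reading of the dimmer one. The plot of single spots shows both probes.

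**Figure D2:**
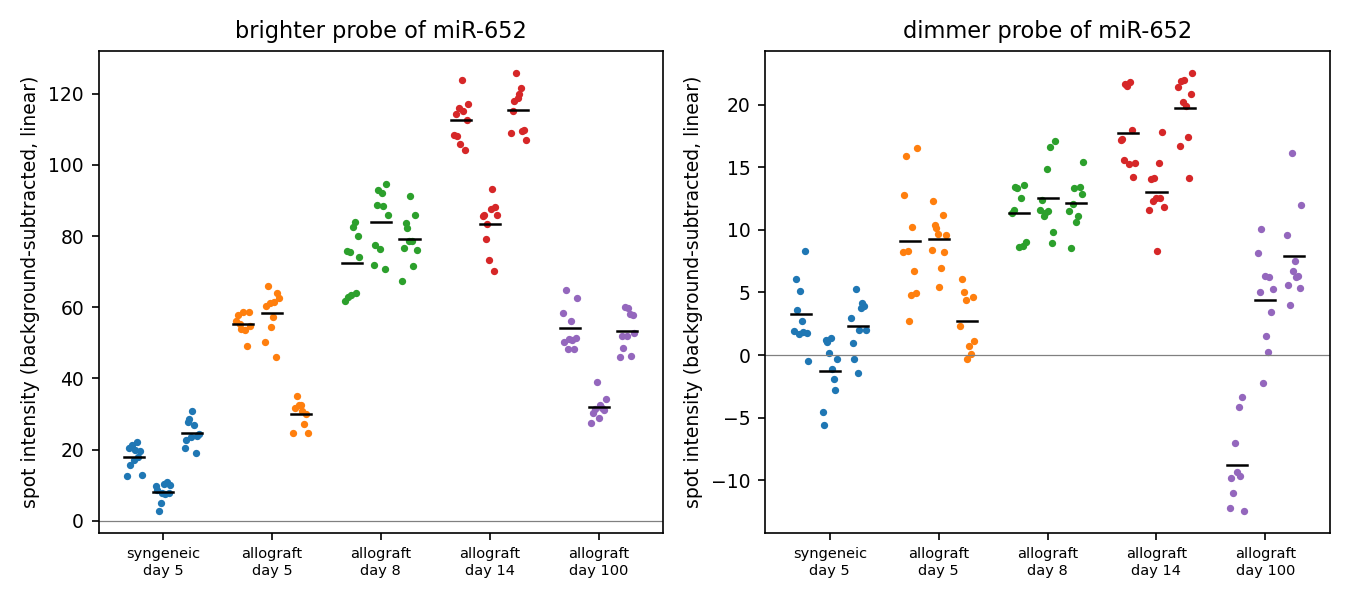
Background-subtracted intensity of every usable spot of the brighter probe (left) and the dimmer probe (right) of miR-652, on linear axes with separate ranges. Points are spots, grouped by array and colored by graft group, and black bars are array means. The brighter probe rises from 8.04 to 24.8 units in the syngeneic grafts to 83.3 to 115.5 units on day 14.

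The miRNAs whose scaled signal was most like that of miR-652 over the 15 arrays were miR-16, miR-342-3p, miR-15b, miR-140* and miR-146a. Those most opposed were miR-148a, miR-30a and miR-192. A copy of miR-16 lies in one cluster with miR-15b, and both miRNAs restrain cell cycle and survival genes such as Bcl2. miR-342-3p and miR-146a are abundant in lymphoid and myeloid cells, and miR-146a is induced by NF-κB. miR-148a and miR-192 are abundant in hepatocytes, and miR-30a belongs to a family common in epithelial tissue. Their sequences are shown, again from RefSeq with the seed in capitals, to set them beside miR-652. For names without an arm, the arm that is the usual main product is given, and no entry was matched for miR-140*:
mmu-miR-16-5p: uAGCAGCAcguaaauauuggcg
mmu-miR-15b-5p: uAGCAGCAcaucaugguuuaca
mmu-miR-342-3p: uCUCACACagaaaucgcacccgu
mmu-miR-146a-5p: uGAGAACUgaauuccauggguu
mmu-miR-148a-3p: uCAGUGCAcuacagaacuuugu
mmu-miR-30a-5p: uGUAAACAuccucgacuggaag
mmu-miR-192-5p: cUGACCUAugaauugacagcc
miR-16-5p and miR-15b-5p have the same seed, and the positions taken for them lie close together, at chr3:69009918-69009939 and chr3:69009775-69009796. No seed in this set is that of miR-652.

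Pearson's r with miR-652 over the 15 arrays was 0.97 for miR-16, 0.96 for miR-342-3p, 0.96 for miR-15b, 0.93 for miR-140* and 0.91 for miR-146a. Spearman's rho was 0.95, 0.96, 0.96, 0.94 and 0.83. At the other end, r was -0.88 for miR-148a, -0.85 for miR-30a and -0.82 for miR-192. These values describe arrays that share their groups and their scaling. Over the 102 other tested miRNAs the median r was 0.21, with 18 above 0.8 and 5 below -0.8.

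After each group mean was taken away, so that only differences between grafts of one group remained, r was 0.94 for miR-140*, 0.91 for miR-15b and 0.79 for miR-16. It was 0.53 for miR-342-3p and 0.48 for miR-146a. These values rest in part on syngeneic replicate 2 and day 100 replicate 1, which did not detect miR-652. Without both arrays, the same r was 0.83 for miR-140*, 0.65 for miR-15b, 0.56 for miR-16, 0.57 for miR-342-3p and 0.38 for miR-146a. Over all 15 arrays it was -0.05 for miR-148a. High values were not particular to the 5 most alike miRNAs. For tested miRNAs whose r with the group means left in was 0.21 and -0.13, it was 0.93 and 0.88 over all 15 arrays. Without both arrays it was 0.41 and 0.73 for these. With the group means left in, r over the 13 arrays that detected miR-652 was 0.88 to 0.98 for the 5 most alike miRNAs.

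Which miRNAs came out as most alike or most opposed depended on the processing. Across the other scalings and the normexp background correction, 3 to 5 of the 5 most alike stayed in that set. Without scaling their r was 0.92 to 0.98. With quantile normalization it was 0.74 for miR-16, 0.88 for miR-342-3p, 0.90 for miR-15b, 0.94 for miR-140* and 0.87 for miR-146a. Of the 3 most opposed, only 0 or 1 stayed in that set under each of these alternatives. Without scaling their r was -0.14 for miR-148a, 0.18 for miR-30a and 0.10 for miR-192. With quantile normalization it was -0.82, -0.76 and -0.20, and with the 75th percentile over all miRNAs -0.59, -0.53 and -0.50.

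The size of the change was not the same as that of miR-652. miR-16 was brighter and moved over a smaller range, from -2.25 to -1.73 in the syngeneic grafts to -1.26 to -1.02 on day 14. miR-15b ran from -3.89 to -2.81 in the syngeneic grafts to -1.11 to -0.82 on day 14, a difference of 2.28 between the means. On day 100 miR-15b was still at -2.17 to -1.51, a mean 1.48 above the syngeneic grafts, where miR-652 was 0.79 above. miR-140*, like miR-652, was not detected on syngeneic replicate 2 and day 100 replicate 1, and it reached -3.81 to -3.36 on day 14. miR-342-3p had the widest range of the set. It was detected on 1 of 3 syngeneic arrays, was -1.27 to -0.78 on day 14 and -3.56 to -3.13 on day 100. The plot of courses sets these beside miR-652.

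**Figure D3:**
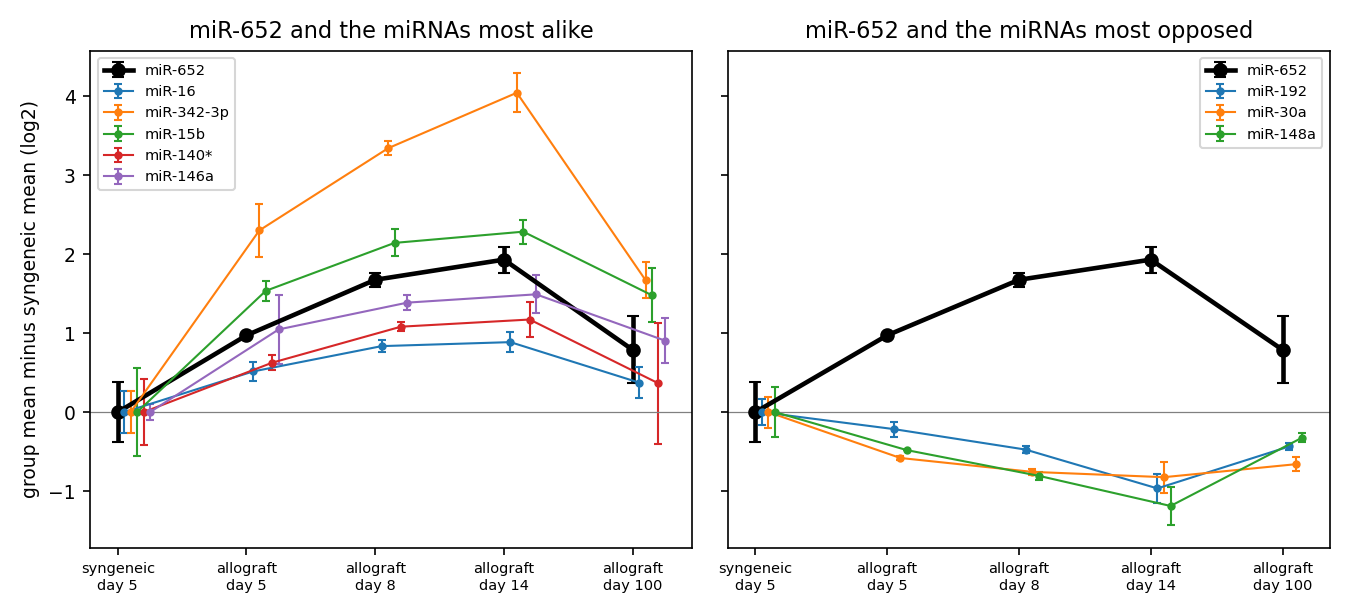
Group mean minus the syngeneic mean, on the log2 scale, for miR-652 (black, in both panels), the 5 miRNAs most like it (left) and the 3 most opposed (right), by graft group. Error bars are the SD of the 3 arrays of each group. miR-342-3p reaches 4.04 on day 14 where miR-652 reaches 1.93, and miR-148a falls to -1.19.

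To place miR-652 among miRNAs of known cell types, lists of leukocyte, hepatocyte, erythroid, stromal and proliferation miRNAs were examined. The lists were chosen with earlier results of these data known, so their counts are a description only. Limma, fitted to all 15 arrays with Benjamini-Hochberg adjustment over the 103 tested miRNAs, called 25.2% of them different from the syngeneic grafts on day 5 (18.4% higher and 6.80% lower). On day 8 it called 40.8% (23.3% higher, 17.5% lower) and on day 14 45.6% (27.2% higher, 18.4% lower). On day 100 the share was 31.1% (16.5% higher, 14.6% lower). On day 14 against day 100 it was 51.5% (33.0% higher, 18.4% lower).

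The leukocyte miRNAs were higher in the allografts, most fully on days 5 and 14. Of 9 on the list, 6 were tested, while miR-150 of mature lymphocytes was detected on 0 arrays and miR-146b and miR-181a on 2 each. miR-142-5p, miR-155 and miR-342-3p were tested only because allograft groups detected them throughout, which favors calls of a rise. On day 5, 6 of 6 rose against the syngeneic grafts (18.4% of all tested), with a median of 1.87 beside 0.12 over all tested miRNAs, and 2 of 6 rose with slide as a block. On day 8, 4 of 6 rose (23.3% of all tested), 4 with the block, with a median of 1.59 beside 0.14. On day 14, 6 of 6 rose (27.2% of all tested), 5 with the block, with a median of 1.96 beside 0.07. On day 100, 3 of 6 rose (16.5% of all tested), 1 with the block, with a median of 0.49 beside 0.00. On day 14, 6 of 6 were above day 100 (33.0% of all tested), 3 with the block, with a median of 1.67 beside 0.10. Under each of 4 other scalings, all 6 differences stayed above 0 in these comparisons. miR-155 was detected on no syngeneic array (0 of 3), and with its difference taken at its bound the list medians were 1.87, 1.39, 1.76 and 0.48.

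The leukocyte miRNAs did not follow one course, and their likeness to miR-652 differed accordingly. miR-223, the myeloid miRNA of granulocytes and monocytes, had r = 0.89 with miR-652 and rank 9. It was -3.06, -2.66 and -2.12 in the syngeneic grafts and -0.75, -1.12 and -0.38 on day 5. It reached -0.0032, -0.31 and -0.38 on day 14, a rise of 2.38 (SE 0.24, limma adjusted p = 7.9e-06). miR-155, induced in activated lymphocytes and macrophages, had r = 0.87 and was at least 2.93-fold higher on day 14 than in the syngeneic grafts. Its limma adjusted p = 7.9e-05 belongs not to this bound but to the difference of 1.95 from the floor. All 3 syngeneic arrays were set to the floor and so had no spread. miR-146a, the NF-κB target, rose by 1.49 (SE 0.21, limma adjusted p = 8.1e-05) on day 14. miR-342-3p, with 2 of 3 syngeneic arrays at the floor, rose by 4.04 (SE 0.20, limma adjusted p = 4.2e-09). This adjusted p also belongs to a difference from values partly at the floor, for a miRNA tested only through allograft groups.

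miR-142-3p and miR-142-5p, made from one hairpin in nearly all blood cells, stood apart from miR-652, with r = 0.36 (rank 44) and 0.51 (rank 34). miR-142-3p had its highest mean on day 5, at 1.14, 1.18 and 2.77, where miR-652 was at the lowest of its first 3 allograft groups. On day 14 it was 1.05, 1.44 and 0.65, so of the day 5 arrays only replicate 3 lay above all of these. For miR-142-5p the mean was -2.46 on day 5 and -2.36 on day 14. miR-142-3p had risen by 1.98 (SE 0.43, limma adjusted p = 0.0071, and 0.091 with slide as a block) on day 5. On day 8 its difference was 0.65 (SE 0.43, limma adjusted p = 0.28), where miR-652 was 1.68 above the syngeneic grafts. The summed scaled signal of the 6 leukocyte miRNAs was 0.752 to 1.82 in the syngeneic grafts, 3.21 to 8.36 on day 5 and 2.43 to 2.85 on day 8. It was 3.26 to 4.45 on day 14 and 1.28 to 1.66 on day 100. This sum, led by miR-142-3p, was thus lower on day 8 than on day 5 while miR-652 was higher. miR-142-5p also went down, from a mean of -2.46 to -3.78. The other members had higher means on day 8, as miR-652 did. miR-342-3p went from -2.755 to -1.72 and miR-155 from -4.03 to -3.42. For miR-146a the means were -2.82 and -2.48, and for miR-223 -0.75 and -0.62. The part of these miRNAs in the level of miR-652 was not tested.

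The hepatocyte miRNAs moved the other way after scaling. Of 6 on the list, 5 were tested, and miR-802 was detected on 2 arrays. On day 5, 3 of 5 fell (6.80% of all tested), 2 with slide as a block, with a median of -0.43. On day 8, 5 of 5 fell (17.5% of all tested), 3 with the block, with a median of -0.47. On day 14, 5 of 5 fell (18.4% of all tested), 5 with the block, with a median of -0.99. On day 100, 2 of 5 fell (14.6% of all tested), 3 with the block, with a median of -0.36. On day 14, 4 of 5 were below day 100 (18.4% of all tested), 0 with the block, with a median of -0.67. This direction rests on the scaling, since without it the medians were 0.11, 0.16, -0.22 and 0.20 against the syngeneic grafts and 0 of 5 passed in any comparison, while with quantile normalization 1 of 5 was called higher on day 100. Their r with miR-652 was -0.88 to -0.74, at ranks 93 to 102 of 102, but this too turned with the processing. Without scaling r was 0.19 for miR-194 and 0.07 for miR-122, and for miR-122 it was 0.18 with quantile normalization and 0.11 with normexp. miR-122, the most abundant miRNA of hepatocytes, was detected on all 15 arrays, as the liver label implies, and fell by 1.05 (SE 0.15, limma adjusted p = 7.9e-05) on day 14 after scaling. The summed scaled signal of the 5 was 30.5 to 36.4 in the syngeneic grafts, 13.6 to 17.6 on day 14 and 22.4 to 28.5 in the other allografts. Its part in the course of miR-652 was not tested.

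The remaining lists were mixed. Of the erythroid list, miR-451 of red cells had r = 0.81 with miR-652 and rose by 1.55 (SE 0.34, limma adjusted p = 0.0023) on day 14. Its neighbor miR-144 had r = -0.20 and a difference of 0.01 (limma adjusted p = 0.99) on that day. Of the 2 erythroid miRNAs tested, 1 rose on day 5 (18.4% of all tested), 0 with slide as a block. On day 8, 1 rose (23.3% of all tested) and 1 fell (17.5%), and on day 14, 1 rose (27.2%). Neither passed on day 100, where 31.1% of all tested did. Both were higher on day 14 than on day 100 (33.0% of all tested), 0 with the block. The fall on day 8 was that of miR-144, which no array of that day detected and which was at least 2.97-fold lower than in the syngeneic grafts. Of the stromal list, miR-126-3p of endothelium and miR-214 of mesenchyme were tested, with r of 0.60 and 0.47. Neither passed in any comparison, but miR-126-3p rose on days 8 and 14 with slide as a block (adjusted p = 0.011 and 0.028).

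The proliferation list holds the clusters of miR-17 and of miR-106b, which Myc and E2F activate. miR-25 and miR-93, from the miR-106b cluster, stood high in likeness to miR-652, with r = 0.90 and 0.88. miR-106b itself had r = 0.73, and miR-92a, miR-20a and miR-19b had 0.68, 0.40 and -0.0008. miR-19a, from the miR-17 cluster, stood at rank 77 and was the member that fell on days 8 and 100. Of 7 tested, 3 rose on day 5 (18.4% of all tested), 0 with slide as a block. On day 8, 3 rose (23.3% of all tested) and 1 fell (17.5%), 5 and 0 with the block. On day 14, 3 rose (27.2% of all tested), 4 with the block. On day 100, 0 rose (16.5% of all tested) and 1 fell (14.6%), 0 and 3 with the block. Day 14 was above day 100 for 4 of 7 (33.0% of all tested), 4 with the block. miR-25 and miR-93 were each detected on 1 of 3 syngeneic arrays, so their differences depend on values at or near the floor. Both were tested only because allograft groups detected them throughout. miR-25 rose by 1.16 (SE 0.23, limma adjusted p = 0.0013) and miR-93 by 0.95 (SE 0.17, limma adjusted p = 0.0005) on day 14. The plot of likeness shows where each list falls.

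**Figure D4:**
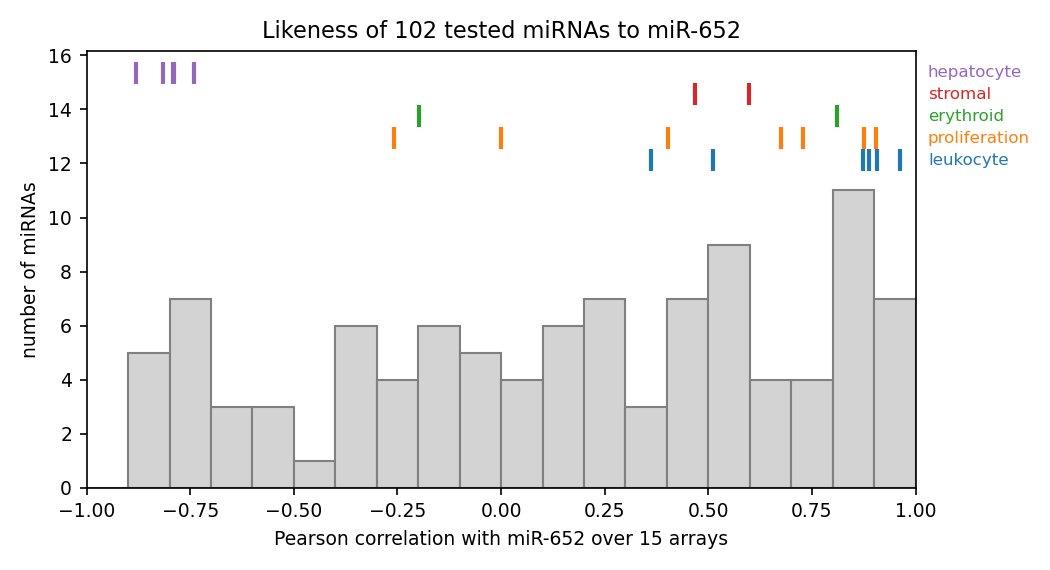
Number of tested miRNAs (vertical axis, 102 in all) by Pearson's r with miR-652 over the 15 arrays (horizontal axis). Colored ticks above the bars mark the tested members of each list. The hepatocyte ticks lie between -0.88 and -0.74, and 4 of the 6 leukocyte ticks lie above 0.8.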

How the data were processed

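miRNAs were measured in 15 liver grafts on 1-color Agilent mouse miRNA arrays (567 mouse and 10 viral miRNAs, 11540 miRNA spots). The authors deposited for each array the spot intensity as written by Feature Extraction (9.5.1.1 per the file headers), background-subtracted and linear, with flags and no normalization between arrays. A table of processed values of the same arrays was not used. The methods name no normalization, an intensity filter and Student's t-test.

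Control and outlier spots were left out. Probe means were summed per miRNA and divided by the array's 75th percentile, set on the 52 miRNAs that every array detected. Values under 0.0270, the median of the arrays' lowest detected signals, were set to this floor before log2 transformation. Of the tested values, 8.28% lay at the floor. One mean per group was fitted with limma 3.58.1 (R 4.3.3), with Benjamini-Hochberg adjustment within each comparison and a threshold of 0.05. Other steps used Python 3.11.15, numpy 2.4.6, pandas 2.3.3 and matplotlib 3.10.9. On simulated data for day 14 against the syngeneic grafts (103 miRNAs), 26 of 30 miRNAs changed 3-fold were recovered, with 3 false calls.

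A miRNA not detected on any array of a group has only a bound there: the brighter group's mean was set against the mean, over the dim group's arrays, of the higher of the lowest detected signal and the miRNA's own signal. Sequences and positions came from RefSeq (GRCm38.p6). The text names miR-652, the 5 tested miRNAs with the highest and the 3 with the lowest Pearson correlation with it, and members of the lists: leukocyte (9), hepatocyte (6), erythroid (3), stromal (6, of which 5 were on the array) and proliferation (9). miR-652 and the lists were chosen with earlier results of these data known. Alternatives were other scalings, probe summaries, background correction, floor, filters, samples in the fit, the methods' t-test, trend and robust moderation, slide or replicate number as a block and each array left out in turn. The normexp alternative (offset 50) used median intensities. A fit on the 13 arrays with miR-652 detected was added after the data were seen. The 3 mice per group limit the precision.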

Additional observations from a re-analysis of the deposited data

How the results depend on the processing

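The order of the group means of miR-652, rising from the syngeneic grafts over day 5 and day 8 to day 14 and lower on day 100, held under all 26 alternatives that change its values. However, miR-652 was picked for this order. Since consecutive groups did not overlap under the main scaling, leaving out arrays or lowering the floor could not reverse it. The sizes of the differences did change. Against the syngeneic grafts on days 5, 8, 14 and 100, the differences were 1.24, 2.04, 2.44 and 1.08 without scaling, which also moved the median of all tested miRNAs to 0.54, 0.69, 0.71 and 0.33. They were 0.46, 0.80, 0.92 and 0.43 as the mean log2 over probes, which gives the near-background probe equal weight, and 0.21, 0.42, 0.55 and 0.22 with normexp, which also used median intensities. The step from day 5 to day 8 was 0.34, 0.21 and 1.10 by mean log2, normexp and the slide block, and that from day 14 to day 100 was -0.48, -0.33 and -1.54. Leaving out each array gave 0.75 to 1.11, 1.46 to 1.81, 1.71 to 2.06 and 0.57 to 1.03 against the syngeneic grafts, 0.66 to 0.75 from day 5 to day 8, 0.16 to 0.31 from day 8 to day 14 and -1.30 to -0.90 from day 14 to day 100. On the 13 arrays with miR-652 detected, the day 100 difference was 0.81.

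The counts of called miRNAs depended more on the processing. On day 5 the count was 26, but 10 with the 75th percentile over all miRNAs, 15 among miRNAs detected on all 15 arrays, 12 among those with a mean signal at least 1.5 times the mean, 1 with only the groups compared, 2 by the methods' t-test with adjusted p-values and 5 with slide as a block. On day 8 it was 42, and 26, 27 and 21 under the first 3 of these and 20 by the adjusted t-test. On day 14 it was 47, and 31, 31, 24 and 21. On day 100 it was 32, but 8 with the 75th percentile over all miRNAs, 21 with the filter at 1.5 times the mean, 2 with only the groups compared, 1 by the adjusted and 19 by the unadjusted t-test, 16 with the slide block, 15 on the 13 arrays, 14 without syngeneic replicate 2 and 11 without day 100 replicate 3. Between day 14 and day 100 it was 53, and 33 with the 75th percentile over all miRNAs, 34 without scaling, 26, 23 and 20 with both filters and the slide block. Leaving out each array gave 19 to 29, 29 to 48, 37 to 51, 11 to 38 and 39 to 57. Without scaling the calls against the syngeneic grafts split into 25 higher and 0 lower, 37 and 4, 45 and 3, and 19 and 5, against 19 and 7, 24 and 18, 28 and 19, and 17 and 15 with it. Between day 14 and day 100 they were 32 and 2 against 34 and 19. With the 75th percentile over all miRNAs this split was 15 and 18, and on day 5 it was 9 and 1, while median scaling gave 21 and 4 on day 5 and quantile normalization 21 and 18 between day 14 and day 100. The causes were not tested.

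Replicate numbers do not pair the mice: deviations from the group means correlated at -0.65 to 0.45 (median -0.053) over the 30 pairs with the same number. Each group holds every replicate number once, so taking the number as a block cannot change a difference of miR-652. With this block the counts of called miRNAs were 25, 38, 46, 30 and 50. Signal over background limits miR-652 most in the syngeneic grafts and on day 100, where 1 of 3 arrays each did not detect it.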
